A study of Homo sapiens with 4 samples.

Results

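The organic ion and ABC drug transporters of HepG2 cells were followed during treatment with APRIL. HepG2 is a human line derived from a liver cancer, and APRIL is a cytokine related to tumour necrosis factor and released by cells. A gene was a member when its symbol opened with SLC22A, SLCO, SLC47A, ABCB, ABCC or ABCG followed by a digit and when a probe set of the array named it alone. With 1 ABCB gene left out by the rule, this gave 56 of the 19775 genes read, on 113 probe sets. SLC22A contributed 18 genes, SLCO 12, SLC47A 2, ABCB 7, ABCC 12 and ABCG 5. The rule also took in 2 pseudogenes, ABCC6P1 and ABCC13, and an antisense RNA, SLCO4A1-AS1, so 53 members code for a protein.

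There were 4 Affymetrix U133 Plus 2.0 arrays, 1 for untreated cells (0 h) and 1 each for cells given 200 ng/ml APRIL for 2, 6 or 12 h. All cells, the untreated ones included, had been kept without serum beforehand, for 24 h by one of the submitters' descriptions and overnight by the other. No array of untreated cells at a later time was used here, so time in culture and treatment cannot be told apart, and since each time has a single array, no replicate error could be had and no test was made. The 3 comparisons with 0 h share the 0 h array.

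Uptake into a hepatocyte begins at the sinusoidal membrane, which faces the blood. There the SLCO carriers (the OATPs) take in bulky anions such as bilirubin conjugates and statins, and the SLC22A carriers take in smaller organic cations and anions. Export runs through ATP-driven ABC pumps of the ABCB, ABCC and ABCG families and through the proton-coupled SLC47A carriers, many of them in the canalicular membrane that lines the bile space. Some members of these families do other work, such as moving sterols or phospholipids, serving mitochondria, or regulating potassium channels.

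The deposited values are on a log scale, taken here as log2, and each probe set is centred on its own median over the 4 arrays. They therefore show change between arrays but no level of expression, and whether a transporter was well expressed in these cells cannot be read from them. The ratio of a gene is the median, over its probe sets, of a treated array minus the 0 h array. A difference of 1 is 2-fold, and counts of genes that reached 2-fold or 1.5-fold (a log2 ratio of 0.585) are given with the percentage of all 19775 genes past the same point. A yardstick of measurement is the robust SD of the 2 h over 0 h ratios across genes, 0.16, which also holds any true difference between those samples. The plain SD was 0.185 over all genes, 0.22 over those with 1 probe set and 0.15 over those with more. The yardstick is thus narrow for genes with 1 probe set. Because whole cultures were measured, fewer cells of a kind and less RNA per cell cannot be told apart. Markers could check the cell type only by their change: 10 of 11 hepatocyte markers were read and had ratios from -0.17 to 0.46 at 12 h. Other cell types' lists had medians at 12 h of 0.06 (immune, 3 of 5 genes read), 0.09 (fibroblast, 6 genes, the highest at 0.89), -0.16 (endothelium, 4 genes) and 0.02 (bile duct, 4 genes). The bile duct genes ran from -0.51 to 0.20. At 12 h the 18 spike-in control probe sets had a median of -0.35, so a 12 h ratio is relative to the other genes of the array. Centred on the spike-in RNAs, the median of all genes at 12 h would shift up by 0.35. These 18 are the Bio and Cre controls of the array. Whether they follow the amount of RNA in a sample was not tested, so that centring is only an alternative scale. The difference between the 3' and 5' probe sets of GAPDH, a sign of RNA quality, moved by at most 0.053 from 0 h, and that of ACTB by -0.24 at 2 h, 0.38 at 6 h and 0.03 at 12 h. Their part in the ratios was not tested.

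The start regions of a few members, chosen after their values were seen, are shown first as context. SLC22A15 had the highest ratio at 12 h, ABCB1 had a probe set past 2-fold, SLC22A7 held the lowest probe set of any member, and ABCG5 and ABCG8 share a start region. The sequences are from RefSeq (GRCh38.p14) and hold the 250 bases before an annotated start, or, for ABCG5 and ABCG8, the 131 bases between their diverging starts. Of the 56 members, 37 have a window in this table, 56 windows in all, since some genes have several starts. Capitals mark matches, on either strand, to any of 5 short motifs: TGANTCA (AP-1), GCGNGGGCG (EGR1), GGGCGG (GC box), GTTAAT (a half-site of HNF1) and TGACNNNGC (the core of the antioxidant response element). SLC22A15 lies at chr1:115976263-115976512 (plus strand), the distal and proximal windows of ABCB1 at chr7:87713296-87713545 and chr7:87600885-87601134 (minus strand), SLC22A7 at chr6:43298010-43298259 (plus strand), and the region between ABCG5 and ABCG8 at chr2:43838840-43838970, printed on the strand of ABCG8.
SLC22A15: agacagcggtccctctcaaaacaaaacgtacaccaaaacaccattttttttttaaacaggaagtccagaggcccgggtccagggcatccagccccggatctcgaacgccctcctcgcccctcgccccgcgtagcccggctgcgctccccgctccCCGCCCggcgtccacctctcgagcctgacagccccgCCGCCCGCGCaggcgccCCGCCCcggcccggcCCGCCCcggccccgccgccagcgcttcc
ABCB1, distal start: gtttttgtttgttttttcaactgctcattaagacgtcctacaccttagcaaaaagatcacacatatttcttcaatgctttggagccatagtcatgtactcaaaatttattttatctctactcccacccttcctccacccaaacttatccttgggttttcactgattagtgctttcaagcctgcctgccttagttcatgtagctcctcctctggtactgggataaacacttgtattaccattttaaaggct
ABCB1, proximal start: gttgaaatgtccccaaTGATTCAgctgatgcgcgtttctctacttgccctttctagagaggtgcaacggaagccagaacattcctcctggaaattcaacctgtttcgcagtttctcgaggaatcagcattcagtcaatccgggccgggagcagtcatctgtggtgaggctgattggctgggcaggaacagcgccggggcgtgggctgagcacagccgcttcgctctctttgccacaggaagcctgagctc
SLC22A7: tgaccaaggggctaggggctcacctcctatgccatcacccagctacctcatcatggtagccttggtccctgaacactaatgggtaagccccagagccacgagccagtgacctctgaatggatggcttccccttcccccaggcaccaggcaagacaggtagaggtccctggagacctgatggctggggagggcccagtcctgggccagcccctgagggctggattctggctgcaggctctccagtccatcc
ABCG5 to ABCG8: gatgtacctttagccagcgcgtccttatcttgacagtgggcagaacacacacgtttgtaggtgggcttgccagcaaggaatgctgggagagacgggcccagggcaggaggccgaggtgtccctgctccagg

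The SLC22A15 window held 4 GC boxes and, at bases 192 to 200, 1 EGR1 match (CGCCCGCGC, on the opposite strand), which overlaps the GC box at bases 191 to 196. Its G and C content was 71.2%. EGR1 matches stood in 8.42% of all 35116 windows and in 6 of the 56 member windows, those of ABCB10, SLC22A5, SLC22A15, SLC22A17, SLCO3A1 and SLCO4C1. The 12 h ratios of the other 5 of these genes lay between -0.27 and 0.04. AP-1 matches stood in 6.57% of all windows and in 2 of the members', a proximal one of ABCB1 (TGATTCA, bases 17 to 23) and one of ABCC11. HNF1 half-sites stood in 6.23% of all windows and in 4 of the members', those of SLC22A6, SLCO1A2, SLCO1B1 and SLCO1B3. The antioxidant core stood in 10.9% of all windows and in 7 of the members', and the GC box in 42.6% and in 24. No motif of the 5 was found in the printed windows of SLC22A7, of the distal ABCB1 start or between ABCG5 and ABCG8, which says only that these letters are not in them.

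At 2 h and 6 h the transporters stood close to the untreated array. At 2 h the 56 ratios ran from -0.40 to 0.28, with a median of 0.03 beside 0.02 for all genes, and at 6 h from -0.49 to 0.44, with a median of 0.04 beside 0.05. No member was past 2-fold or past 1.5-fold at either time. Among all genes, 0.0354% were higher and 0.0101% lower by 2-fold at 2 h, and 0.308% and 0.344% by 1.5-fold. At 6 h these shares were 0.101% and 0.283% for 2-fold, and 1.15% and 1.64% for 1.5-fold. At such shares, fewer than 1 of 56 genes per direction would be past either point, so a count of 0 is near the background. The lowest member at 2 h was SLC22A2, the renal organic cation carrier OCT2, at -0.40, and the highest was ABCC2 at 0.28.

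At 12 h the members spread out. Their ratios ran from -0.94 to 2.70, with a median of -0.04 beside 0.01 for all genes. SLC22A15 alone was past 2-fold higher, and no member was past 2-fold lower, where 0.946% and 0.986% of all genes were. Past 1.5-fold there were 3 higher (SLC22A15, SLCO4A1-AS1 and ABCB4) and 4 lower (ABCC6P1, ABCG2, ABCG5 and SLC22A12). That is 5.36% and 7.14% of the members, against 4.46% and 3.7% of all genes. In counts of so few genes these shares are near the background. Centred on the spike-in RNAs, 11 members were past 1.5-fold higher and 1 lower (ABCC6P1 at -0.59), or 19.6% and 1.79% beside 19.3% and 1.16% of all genes. With that centring 694 genes were 2-fold higher and 76 lower, where without that centring these counts were 187 and 195. The median size of a ratio, without its sign, was 0.14 for the members and 0.16 for all genes.

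**Figure D1:**
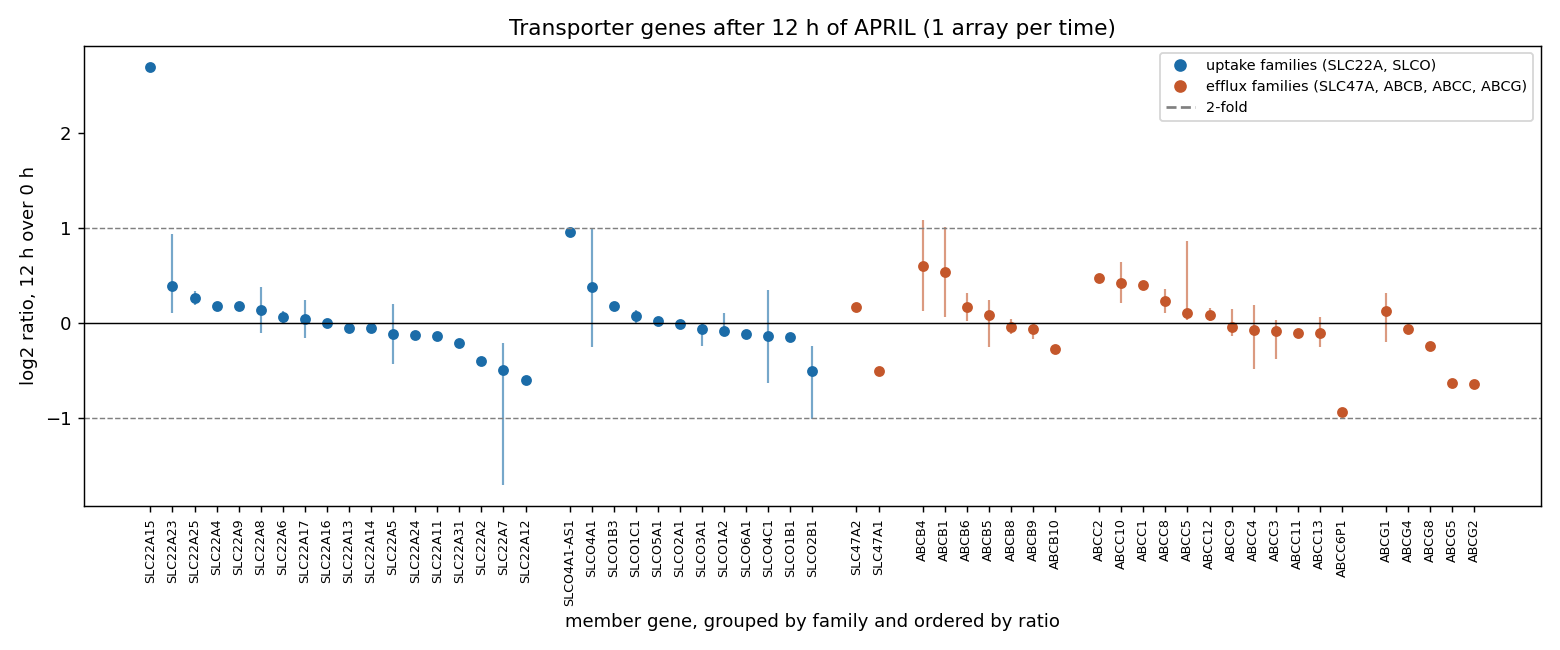
Log2 ratio of each of the 56 member genes at 12 h over 0 h (vertical axis), grouped by family and ordered within it; dots are gene medians, vertical lines the range over the probe sets of a gene, dashed lines 2-fold. SLC22A15 at 2.70 stands alone above the upper line, and single probe sets of SLC22A7, SLCO2B1, ABCB1, ABCB4 and SLCO4A1 cross a line that the gene median does not.

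Among the uptake carriers, SLC22A15 had by far the widest change. This member of the SLC22A family carries zwitterions such as carnitine and ergothioneine. Its single probe set had deposited log2 values of -0.04, 0.004, -0.004 and 2.66 at 0, 2, 6 and 12 h. The first 3 arrays lay within 0.05 of each other and the 12 h array stood 6.51-fold above the 0 h array. Ranked by ratio at 12 h, SLC22A15 was number 3 of all 19775 genes. No second probe set of the gene was read here, so the value rests on 1 reading of 1 array.

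The SLC22A family otherwise showed small differences in both directions. The 4 organic cation and carnitine carriers read here (SLC22A2, SLC22A4, SLC22A5 and SLC22A16) lay between -0.40 and 0.18 at 12 h. The 9 organic anion carriers lay between -0.60 and 0.26, with a median of -0.05. SLC22A12, the urate carrier URAT1 known from the kidney, was the lowest, with values of 0.10, -0.08, 0.08 and -0.49 at 0, 2, 6 and 12 h on 1 probe set. SLC22A7 (OAT2), a hepatic anion carrier that handles cyclic nucleotides and prostaglandins, had a gene ratio of -0.49 at 12 h. All 5 of its probe sets were below 0 then, at -0.21, -0.42, -0.49, -0.92 and -1.70 (SD 0.59), so they share a direction but not a size. The spike-in shift of 0.35 is larger than the first of these, so with that centring not all 5 are below 0. At 2 h and 6 h the same probe sets lay between -0.23 and 0.12. SLC22A23, an orphan carrier, was the next highest of the family after SLC22A15, at 0.40, with its 4 probe sets from 0.11 to 0.94. SLC22A9 (OAT7), which carries sulfated steroids into hepatocytes, was at 0.18 at 12 h.

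**Figure D2:**
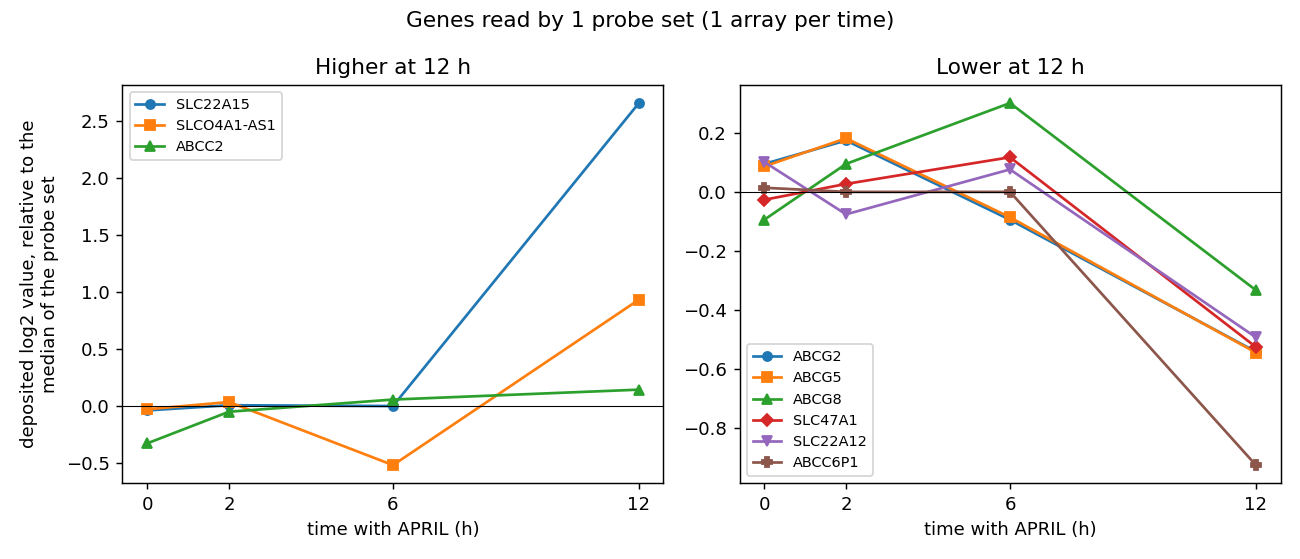
Deposited log2 values (vertical axis, relative to the median of the probe set) against hours with APRIL for 9 genes read by 1 probe set each, at 1 array per time; the panels have different scales. SLC22A15 is flat until 6 h and at 2.66 at 12 h, while ABCG2 and ABCG5 follow nearly the same course down to -0.54.

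In the SLCO family the 12 h ratios ran from -0.51 to 0.96. The highest was SLCO4A1-AS1, a noncoding RNA antisense to SLCO4A1, with values of -0.03, 0.03, -0.52 and 0.93 at 0, 2, 6 and 12 h. SLCO4A1 itself, a carrier of thyroid hormone and other anions, overlaps this RNA in the annotation. Of its 2 probe sets, one was at 1.01 at 12 h and the other at -0.25, which gives a gene ratio of 0.38 between readings of opposite sign. The probe set at 1.01 was also the lower of the pair at 6 h (-0.16, against -0.01 for the other). SLCO2B1 (OATP2B1), which takes up steroid sulfates and statins, was lowest at -0.51. Its 3 probe sets were all below 0 at 12 h, at -0.24, -0.51 and -1.01 (SD 0.39), although with spike-in centring the first of these would lie above 0. By gene ratio (-0.02, -0.11 and -0.51), SLCO2B1 was the only member of the 56 below 0 at 2 h and lower at each later time. This did not hold with spike-in centring (-0.03, -0.19 and -0.15). Nor did every probe set show it: one was at 0.08 at 2 h, and another at -0.084 at 2 h and -0.075 at 6 h. The share of all genes with such a course was not computed. The hepatocyte carriers SLCO1B1 (OATP1B1) and SLCO1B3 (OATP1B3), 1 probe set each, were at 0.25, -0.29 and -0.15, and at 0.00, 0.10 and 0.18, at 2, 6 and 12 h. SLCO1B1 was thus above the untreated array at 2 h and below it later, except that spike-in centring put it at 0.21 at 12 h. SLCO4C1, read by 2 probe sets, was at 0.44 at 6 h, but these stood at 0.13 and 0.75 then and at 0.35 and -0.63 at 12 h.

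Among the exporters, ABCB1 and ABCB4 were the highest at 12 h. ABCB1 encodes P-glycoprotein, the multidrug pump, and its neighbour ABCB4 encodes the pump that moves phosphatidylcholine into bile. The gene ratios were 0.54 and 0.61, yet each is a median of 2 probe sets that differ. One ABCB1 probe set had values of -0.07, 0.02, -0.02 and 0.95 at 0, 2, 6 and 12 h, a ratio of 1.02 at 12 h, and the other a ratio of 0.07. One ABCB4 probe set had values of -0.08, 0.07, -0.07 and 1.01, a ratio of 1.09, and the other a ratio of 0.13. A further probe set, left out of both genes because the annotation gives it to ABCB4 and ABCB1 together, had a ratio of 1.06 at 12 h, after 0.31 at 2 h and 0.11 at 6 h. So 3 of the 5 probe sets for this pair were 2-fold or more above 0 h at 12 h and 2 were near 0. The ABCB4 reading of 1.09 comes from a probe set that may match several transcripts, and without such probe sets ABCB4 was at 0.13. ABCB1 and ABCB4 are close copies, so the readings may not be separate.

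**Figure D3:**
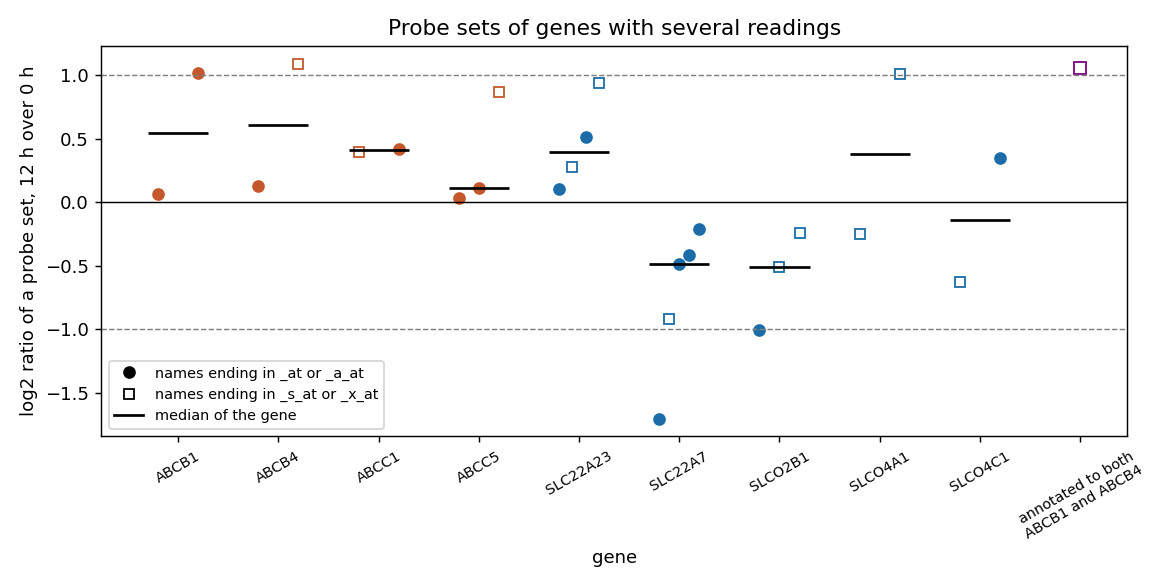
Log2 ratio at 12 h over 0 h (vertical axis) of each probe set of 9 genes with several readings, and of 1 probe set annotated to both ABCB1 and ABCB4; circles and open squares separate probe set names as in the key, bars are gene medians. The 2 readings of ABCC1 coincide near 0.41, while those of ABCB1, ABCB4 and SLCO4A1 are about 1 apart or more.

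At the level of probe sets, 4 of the 113 were 2-fold or more higher at 12 h and 2 were lower, where 1.56% and 1.57% of all probe sets with 1 symbol were. The higher ones belong to SLC22A15, ABCB1, ABCB4 and SLCO4A1 and the lower ones to SLC22A7 and SLCO2B1. The other ABCB genes serve organelles or other tissues and lay between -0.27 and 0.17 at 12 h. ABCB10, a mitochondrial transporter tied to haem synthesis, was the lowest of them, at 0.21 at 6 h and -0.27 at 12 h (0.08 with spike-in centring).

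ABCC1 (MRP1), which exports glutathione conjugates, had closely matching readings. Its 2 probe sets had ratios of 0.14 and 0.33 at 2 h. At 6 h they were -0.44 and -0.45, and at 12 h 0.42 and 0.40. Both were thus below the untreated array at 6 h and above it at 2 h and 12 h, with an SD between them of 0.006 at 6 h and 0.02 at 12 h. From 2 h to 6 h ABCC1 was the only member past 1.5-fold, at -0.68, where 1.57% of all genes were higher and 2.07% lower; with spike-in centring SLCO1B1 and SLCO4A1-AS1 were past it too. Between 6 h and 12 h it was at 0.85.

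ABCC2 (MRP2), the canalicular pump for bilirubin glucuronides, stepped up at each time, with values of -0.33, -0.05, 0.05 and 0.14 at 0, 2, 6 and 12 h. The ratios were 0.28, 0.39 and 0.47, on 1 probe set. ABCC10 and SLCO1B3 also had ratios above 0 at 2 h that stepped up at each time, SLCO1B3 from only 0.004. These were 3 of the 56 members, and the share of all genes with such a course was not computed. With spike-in centring ABCC2 still stepped up in this way, ABCC10 and SLCO1B3 did not, and ABCB5, ABCB6, SLC22A25 and SLCO5A1 did. ABCC10 (MRP7) was at 0.12, 0.18 and 0.43, and both of its probe sets may match several transcripts. ABCC3 (MRP3), a basolateral exporter of glucuronides, was at 0.24 at 2 h, with all 5 probe sets between 0.10 and 0.26, and at -0.08 at 12 h (0.27 with spike-in centring). ABCC4 (MRP4), which exports cyclic nucleotides and bile acids from the basolateral side, was at -0.22, -0.03 and -0.07, and its 4 probe sets differed in sign at every time. ABCC5 (MRP5), also a cyclic nucleotide exporter, was at 0.11 at 12 h, with 1 of its 3 probe sets at 0.87. The potassium channel regulators ABCC8 and ABCC9 were at 0.24 and -0.04.

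ABCC6P1, a pseudogene copied from a coding gene of the ABCC family, was the lowest of all members, with values of 0.01, 0, 0 and -0.93 at 0, 2, 6 and 12 h. It has 1 probe set, and whether that probe set also reads the coding copy was not tested. The first 3 arrays were level and the 12 h array lay below each of them by 0.93 to 0.94.

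In the ABCG family 4 of 5 genes were below 0 at 12 h, with a median of -0.24, but with spike-in centring ABCG4 and ABCG8 lay above 0. Below 0 at 12 h were also 9435 of all 19775 genes, whose median was 0.01, and 5 genes are few to set beside that. ABCG2 (BCRP), a canalicular drug pump, had values of 0.09, 0.17, -0.09 and -0.54 at 0, 2, 6 and 12 h, a 12 h ratio of -0.64. ABCG5 and ABCG8 form together the pump that moves sterols into bile, and they share the start region printed above. ABCG5 had values of 0.09, 0.18, -0.09 and -0.54, a ratio of -0.63, and ABCG8 values of -0.09, 0.09, 0.30 and -0.33, a ratio of -0.24. The pair stood on opposite sides of 0 h at 6 h, at -0.17 and 0.40, and both were lower at 12 h than at 6 h, by -0.46 and -0.63. ABCG2 and ABCG5 differed by 0.02 or less at each of the 3 times. Each of these 3 genes rests on 1 probe set. ABCG1, which hands cholesterol to high-density lipoprotein, was at 0.12 at 12 h, with 4 probe sets from -0.20 to 0.32. SLC47A1 (MATE1), which passes organic cations such as metformin into bile, had values of -0.03, 0.03, 0.12 and -0.53, a 12 h ratio of -0.50, and SLC47A2 was at 0.17. Centred on the spike-in RNAs, ABCG2, ABCG5 and SLC47A1 were still below 0 h at 12 h, at -0.28, -0.28 and -0.15, and so were SLC22A7 at -0.13 and SLCO2B1 at -0.15, whereas ABCG8 was at 0.11.

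Sorted by the membrane of the hepatocyte, the canalicular exporters were the most divided at 12 h. Of the 7, ABCB4, ABCB1 and ABCC2 were at 0.61, 0.54 and 0.47, and ABCG8, SLC47A1, ABCG5 and ABCG2 were between -0.64 and -0.24. At 2 h all 7 were above 0, by 0.03 to 0.28, with a median of 0.08 beside 0.02 for all genes, of which 10588 of 19775 were above 0. ABCB1 and ABCB4 each had 1 probe set just below 0 at 2 h, at -0.03 and -0.02, and with the other 3 arrays as reference ABCB1, ABCB4 and ABCC2 were at -0.13, -0.05 and -0.01. The 5 sinusoidal uptake carriers had medians of -0.02, -0.09 and -0.15 at 2, 6 and 12 h. At 12 h SLC22A7 and SLCO2B1 were near -0.50 and SLCO1B3 and SLC22A9 near 0.18. The 4 basolateral exporters had medians of 0.17, 0.01 and 0.02. Centred on the spike-in RNAs, the 12 h medians were 0.21 for the sinusoidal carriers, 0.11 for the canalicular exporters, where ABCG8 joins those above 0, and 0.37 for the basolateral exporters. These groups are not complete, since 5 of 6 listed sinusoidal carriers and 4 of 5 listed basolateral exporters were read.

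**Figure D4:**
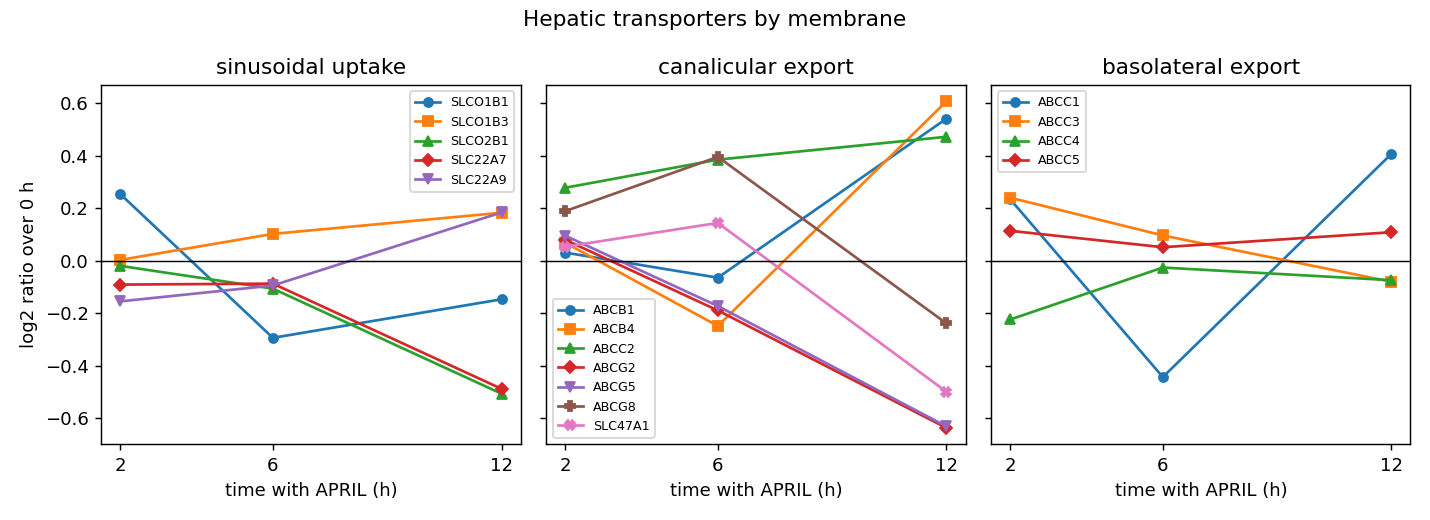
Log2 ratio over 0 h (vertical axis) of hepatic transporters against hours with APRIL, by membrane: 5 sinusoidal uptake carriers, 7 canalicular exporters and 4 basolateral exporters, 1 line per gene and 1 array per time. The canalicular lines lie together at 2 h, from 0.03 to 0.28, and part by 12 h into 3 at 0.47 to 0.61 and 4 at -0.64 to -0.24, of which ABCG8 lies above 0 (0.11) with spike-in centring.

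Uptake and efflux families as wholes had medians close to each other and to that of all genes. At 2 h the 30 uptake genes had a median of -0.02, with 14 above 0, and the 26 efflux genes a median of 0.06, with 17 above 0. At 6 h the medians were 0.03 and 0.09, with 16 and 18 genes above 0. At 12 h they were -0.03 and -0.04, with 13 and 12 genes above 0. Of all 19775 genes, 10588, 11782 and 10217 were above 0 at 2, 6 and 12 h, with medians of 0.02, 0.05 and 0.01. The efflux median thus exceeded the uptake median by 0.09 at 2 h and 0.06 at 6 h, and lay 0.01 away from it at 12 h. With so few arrays no interval of these differences can be given. Centred on the spike-in RNAs, the 12 h medians were 0.33 for uptake and 0.31 for efflux. Another centring of the arrays cannot change this difference. Without probe sets ending in _x_at or _s_at it was 0.07 at 2 h, 0.0003 at 6 h and 0.02 at 12 h. With the probe set of widest range for each gene it was 0.06, 0.20 and -0.005, and with protein-coding members only it was 0.10, 0.07 and 0.07. With only the 14 plasma membrane exporters on the efflux side, the efflux medians were 0.06, 0.04 and 0.10 at 2, 6 and 12 h. The uptake medians beside them were -0.02, 0.03 and -0.03, so the sign of the 12 h difference depends on which exporters are counted. The SD of ratios at 12 h was 0.58 over the uptake genes and 0.37 over the efflux genes. Without SLC22A15 the uptake SD was 0.30. The median size of a ratio was 0.14 for uptake and 0.17 for efflux.

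**Figure D5:**
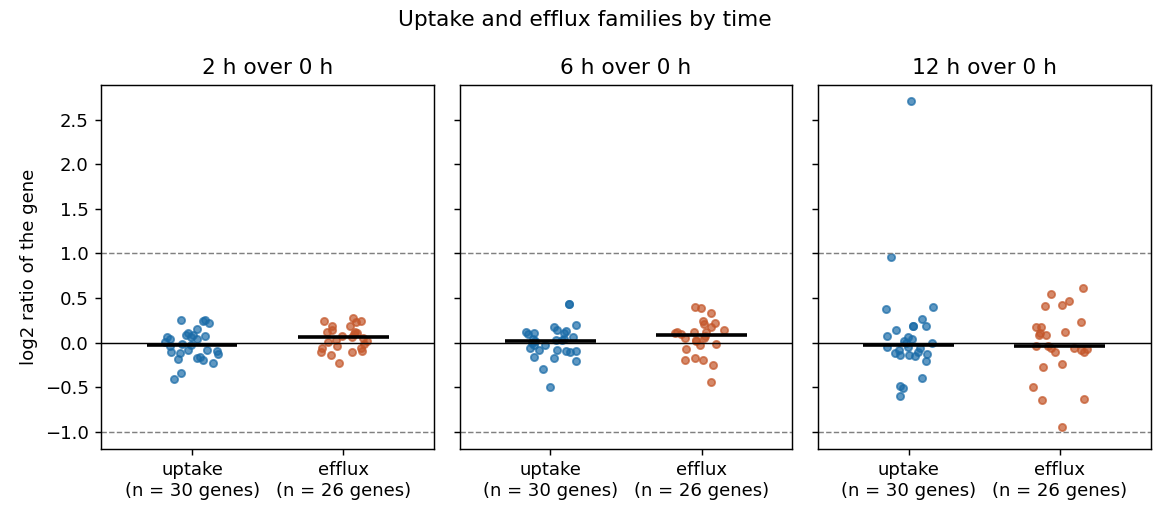
Log2 ratio over 0 h (vertical axis) of the 30 uptake and 26 efflux genes at 2, 6 and 12 h; each dot is a gene, spread sideways for legibility, bars are medians and dashed lines 2-fold. The medians stay within 0.09 of each other at each time, and the spread is widest at 12 h.

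More members were past 1.5-fold between 6 h and 12 h than between 2 h and 6 h. The same held for all genes, of which 1.57% were higher and 2.07% lower over the earlier step. Over the step from 6 h to 12 h, 6 members were past 1.5-fold higher (SLC22A15, SLCO4A1-AS1, ABCB4, ABCC1, ABCB1 and ABCC5) and 3 lower (ABCC6P1, SLC47A1 and ABCG8). That is 10.7% and 5.36% of the members, where 3.51% and 3.4% of all genes were. The step of a gene is the median, over its probe sets, of the later array minus the earlier one. ABCC5, at 0.586, only just passed, and its 3 probe sets had steps of 0.06, 0.59 and 0.69. Its gene ratios over 0 h were 0.05 at 6 h and 0.11 at 12 h, so by these it hardly differed. Centred on the spike-in RNAs, 12 members were higher and 0 lower, which is 21.4% of the members beside 23.0% of all genes. All 7 members past 1.5-fold against 0 h were past it at 12 h only, since none was at 2 h or 6 h. That their widest ratio was at 12 h follows from this and adds nothing to it. Members read by 1 probe set gave 6 of these 7, and they are 24 of the 56. Over all genes, 5.06% of those with 1 probe set and 3.92% of those with more were past 1.5-fold higher at 12 h, and 4.06% and 3.37% lower.

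Neighbouring genes were alike in some pairs and unlike in others. Among the protein-coding members there were 12 neighbouring pairs in the RefSeq order. Of these, 8 had ratios of the same sign at 12 h, 5 at 6 h and 6 at 2 h. The share of all neighbouring genes with the same sign was not computed, so these counts have no background beside them. Signs at 12 h also depend on centring: with that on the spike-in RNAs, ABCG5 and ABCG8 were at -0.28 and 0.11. ABCB4 and ABCB1 differed by 0.07 at 12 h, SLC22A13 and SLC22A14 by 0.002, and SLCO4C1 and SLCO6A1 by 0.03. At 12 h SLC22A4 and SLC22A5, the carriers of ergothioneine and of carnitine, stood at 0.18 and -0.11 (0.54 and 0.24 with spike-in centring). The probe sets of SLC22A5 differed in sign then, at 0.21 and -0.43. SLC22A11 and SLC22A12 stood at -0.13 and -0.60 (0.22 and -0.24 with spike-in centring).

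Regulators of these transporters were taken from a list of nuclear receptors, stress sensors, other transcription factors and membrane scaffolds, of which 24 of 30 were read. The list was chosen with earlier results of these data known, so its share past a fold is descriptive only. None of the 24 was past 1.5-fold at 2 h or 6 h. At 12 h 7 were past 1.5-fold higher and 0 lower, which is 29.2% and 0% of the list beside 4.46% and 3.7% of all genes. The median at 12 h was 0.10 beside 0.01 for all genes. Centred on the spike-in RNAs, 8 were higher (33.3%, beside 19.3% of all genes) and the median was 0.46 beside 0.36. AHR, the dioxin receptor that senses aromatic compounds, was at 0.98, and NR0B2 (SHP), which represses bile acid synthesis, at 0.91. KEAP1, the inhibitor of the antioxidant factor NRF2, was at 0.74, and CEBPB, a liver transcription factor, at 0.72. The other 3 were EGR1, JUN and FOS, at 2.91, 1.42 and 0.63. NFE2L2, the gene of NRF2 itself, was at 0.04, and NR1I3 (CAR), a xenobiotic receptor, at -0.37 (-0.01 with spike-in centring). The lowest was PDZK1, a scaffold that holds several of these carriers at the membrane, at 0.45 at 6 h and -0.54 at 12 h on 1 probe set. AHR, NR0B2, KEAP1, CEBPB and FOS each rest on 1 probe set too.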

How the data were processed

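The authors' deposited table gave log2 values for 54675 probe sets on 4 arrays, computed by RMA (version not named) per the submitters' processing notes. The sources used here do not describe the step that centred each probe set on its median (0 within 5e-07). Neither the base nor the direction of the values is stated: base 2, the scale of RMA, and higher for more transcript were assumed. Column medians were -0.005, 0, 0.011 and -0.004 at 0, 2, 6 and 12 h.

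Probe sets were named by GEO's annotation of the platform, with symbols brought up to date (GRCh38.p14 names) by gene ID. Of the probe sets, 41091 had 1 symbol and 1801 several, and only the first were used. Samples were grouped by title. Python 3.11.15 with pandas 2.3.3 computed ratios, medians and counts past 1.5-fold, 2-fold or 3-fold. Precision is limited by having so few arrays. On simulated data 99.5% of 200 of 19775 genes changed by 1.5 on the log2 scale at 12 h were called at 2-fold, with no unchanged gene called, which checks the code and says nothing on how reliable the calls are.

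Members, lists, motifs and alternatives were chosen with earlier results of these data known. Named are members past 1.5-fold at any time, the extremes of each family at 12 h and 18 hepatic transporters, of which 15 were read. Other members and probe sets singled out were chosen after their values were seen. Alternatives were the mean or the widest-ranging probe set per gene, leaving out probe sets ending in _x_at or _s_at, centring on array medians or spike-in RNAs, and the other 3 arrays as reference. For the efflux median, a further alternative kept only the plasma membrane exporters.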

Additional observations from a re-analysis of the deposited data

Results flagged for a closer look

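A probe set that the annotation gives to ABCB4 and ABCB1 together, and which therefore belongs to neither gene here, had a log2 ratio of 1.06 at 12 h over 0 h. It is listed because this signal lies outside the gene values, above the untreated array, by more than 1.5-fold. The gene medians were 0.61 for ABCB4 and 0.54 for ABCB1.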

How the results depend on the processing

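No paired analysis was possible because each time has 1 array. A value was taken as moved when it changed by 0.16 or more, and a count when it changed by over 1.5 times. At 12 h the count of members 2-fold higher, 1 as reported, was 4 with the widest-ranging probe set, 2 with spike-in centring, 2 with the other 3 arrays as reference, 3 at 1.5-fold and 4 when probe sets were counted (an alternative added after seeing the data). The count 2-fold lower, 0 as reported, was 2 with the widest-ranging probe set, 1 without probe sets ending in _x_at or _s_at, 4 at 1.5-fold and 2 when probe sets were counted. Spike-in centring put the 12 h medians at 0.33 for uptake and 0.31 for efflux. Over all genes, the counts of 187 higher and 195 lower by 2-fold at 12 h were 513 and 508 with the widest-ranging probe set and 694 and 76 with spike-in centring. With spike-in centring all 22 named genes moved at 12 h by the same shift. SLC22A15 has 1 probe set, so only centring or another reference can change its 12 h ratio, which was 2.70 with array medians, 3.05 with spike-in centring and 2.67 with the other 3 arrays as reference. Signal over background cannot be given, since the values hold no level.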
